A study of Homo sapiens with 6 samples.

Results

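Immediate early genes are the genes a cell transcribes first after a stimulus, from factors already present and without new protein synthesis. The set described here is 10 such genes of 59251 rows in the expression tables, chosen by symbol: FOS, FOSL1, JUN, JUNB and JUND, which encode subunits of the transcription factor AP-1, EGR1, a zinc finger factor, KLF6, a Krüppel-like factor, IER2 and IER3, which encode immediate early response proteins, and DUSP1, which encodes a phosphatase that switches off MAP kinases. All 10 rows were found, and all 10 were among the 14808 genes with enough counts to be tested. The samples were HCT116 cells, a human colorectal carcinoma line, growing in medium with serum. They were either unedited (WT, 3 libraries) or clones edited with CRISPR/Cas9 to carry N106S, an asparagine-to-serine change, on both copies of EIF6 (MUT, 3 libraries). The protein, eIF6, binds the free large ribosomal subunit and holds it apart from the small one. Whether libraries of a group came from different cultures or clones is not given in the labels. The p-values therefore rest on the spread among these libraries alone, which may be technical.

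AP-1 is a dimer of a JUN protein with another JUN protein, a FOS protein or a factor of the ATF, BATF or MAF families. Growth factor signals reach these genes through RAS, RAF, MEK and ERK, which act on the serum response factor SRF and its ELK partners at the promoters of FOS and EGR1, while stress kinases act on JUN and ATF2. FOS and EGR1 mRNAs rise within minutes and are short-lived, FOSL1 mRNA rises later and stays up where ERK is active, and DUSP1 closes the loop by dephosphorylating the kinases. Because the response is so fast, scraping, chilling or a change of medium can move these transcripts. The labels give 1 harvest procedure for both groups, in which cells below confluence were washed and scraped in cold saline and snap frozen, and no per-library record of handling.

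The promoters of 8 of the 10 genes were matched by symbol to RefSeq sequence of build GRCh38.p14, as the 250 bases before the transcription start. FOSL1 and IER3 had no entry. A CArG box, the motif bound by SRF, was found in EGR1 alone of the 8, in a pair whose first bases lie 105 and 83 bases before the start, and in 1.16% of 35116 promoters of that length. The 8-base cAMP response element TGACGTCA was found in JUND, 200 bases before the start, and in DUSP1, 125 bases before it (2 of 8, against 1.65% of all promoters). Its core TGACG, which overlaps the full element, was found in 7 of the 8 and in 21.2% of all. JUN and KLF6 each hold TGACATCA (2 of 8, against 2.37%), and the 7-base AP-1 element TGANTCA was found in 0 of 8 (6.57% of all). Motifs were searched on both strands and in these 250 bases only. Elements further upstream, in FOS or any other gene, would be missed, so a motif not found is absent from this window alone. The sequences of the earliest responders FOS and EGR1 and of JUN and KLF6, whose levels moved together across libraries, are given 5′ to 3′ on the gene's strand. Capitals mark the CArG boxes in EGR1, TGACG at 64 bases before the start in FOS, and TGACATCA at 67 bases in JUN and 172 bases in KLF6.
EGR1 promoter, chr5:138465229-138465478, plus strand: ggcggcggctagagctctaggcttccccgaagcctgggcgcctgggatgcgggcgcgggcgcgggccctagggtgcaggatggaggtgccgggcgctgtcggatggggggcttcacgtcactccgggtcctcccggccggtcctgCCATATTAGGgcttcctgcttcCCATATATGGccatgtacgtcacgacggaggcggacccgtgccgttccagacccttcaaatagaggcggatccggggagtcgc
FOS promoter, chr14:75278578-75278827, plus strand: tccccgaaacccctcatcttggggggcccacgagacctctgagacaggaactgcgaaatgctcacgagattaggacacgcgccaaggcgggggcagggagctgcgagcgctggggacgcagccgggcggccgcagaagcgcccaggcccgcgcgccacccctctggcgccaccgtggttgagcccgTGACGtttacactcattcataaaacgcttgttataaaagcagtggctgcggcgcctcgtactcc
JUN promoter, chr1:58784048-58784297, minus strand: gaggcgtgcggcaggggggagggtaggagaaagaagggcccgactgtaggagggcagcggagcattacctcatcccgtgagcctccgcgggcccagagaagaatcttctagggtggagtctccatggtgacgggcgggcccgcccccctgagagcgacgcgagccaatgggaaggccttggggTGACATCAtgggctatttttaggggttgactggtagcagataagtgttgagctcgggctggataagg
KLF6 promoter, chr10:3785210-3785459, minus strand: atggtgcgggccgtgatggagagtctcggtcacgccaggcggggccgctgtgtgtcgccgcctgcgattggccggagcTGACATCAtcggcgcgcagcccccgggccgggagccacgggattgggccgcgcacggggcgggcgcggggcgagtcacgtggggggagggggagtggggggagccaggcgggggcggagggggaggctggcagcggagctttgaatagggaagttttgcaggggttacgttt
A match is a description of letters and shows no binding in these cells.

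The libraries held between 53986494 and 87656970 counts, most of them from small structural RNAs, and between 10252501 and 21984081 without 7SL, 7SK, RPPH1 and RMRP RNA. Ribosomal RNA took 0.0891% to 0.234% of the counts in 4 libraries, 1.16% in WT replicate 1 and 3.91% in MUT replicate 2. Both of the latter recur in the results. After scaling to TMM-normalised totals, WT replicate 1 holds the highest and MUT replicate 2 the lowest value of most of the 10 genes. EIF6 was at 43.3, 47.9 and 47.4 CPM (counts scaled to the TMM-normalised library total) in WT and 36.7, 30.7 and 35.7 in MUT (log2 difference -0.43, SE 0.12, edgeR adjusted p = 0.110), and its level does not check an amino acid edit. The epithelial keratins KRT8, KRT18 and KRT19 stood at 114 to 205 CPM in every library and EPCAM at 7.11 to 9.83, but the adhesion gene CDH1 was at only 0.235 to 0.856 CPM. By contrast, the 5 leukocyte markers summed to 0.821 to 1.46 CPM, the 4 endothelial markers to at most 0.0616 and the 6 fibroblast markers to 0.594 to 3.05. The leukocyte markers PTPRC and CD3E and the endothelial marker CDH5 were at 0 in all 6 libraries.

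No member of the set was called between MUT and WT, the AP-1 subunit gene FOSL1 being the highest in MUT relative to WT and JUNB the lowest. By edgeR's quasi-likelihood F-test with Benjamini-Hochberg adjustment, 0 of the 10 genes reached an adjusted p below 0.05, where 283 of 14808 genes (1.91%) did, 146 of them higher in MUT (0.986%). At an unadjusted p below 0.05 the count was 1 of 10, FOSL1, against 19.6% of all tested genes. The DESeq2 Wald test called FOSL1 alone of the 10, in a fit that called 5.16% of all genes. The median log2 fold change of the 10 was -0.15, with 3 values above 0 and 7 below, beside -0.01 over all tested genes. Scaled by library size alone, the median over all genes was 0.54 and that of the 10 was 0.32, so the 7 values below 0 lay above it there. Without MUT replicate 2 the median of the 10 was 0.08, and in the 4 libraries low in ribosomal RNA it was 0.14, so its sign turned on that library. With any other single library left out it lay between -0.30 and -0.06. On TMM-scaled CPM, in none of the 10 did the 3 MUT libraries lie wholly above or below the 3 WT libraries, whereas the groups did not overlap in 26.1% of all genes. RNA was measured in bulk, so fewer expressing cells and less RNA per cell cannot be told apart.

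**Figure D1:**
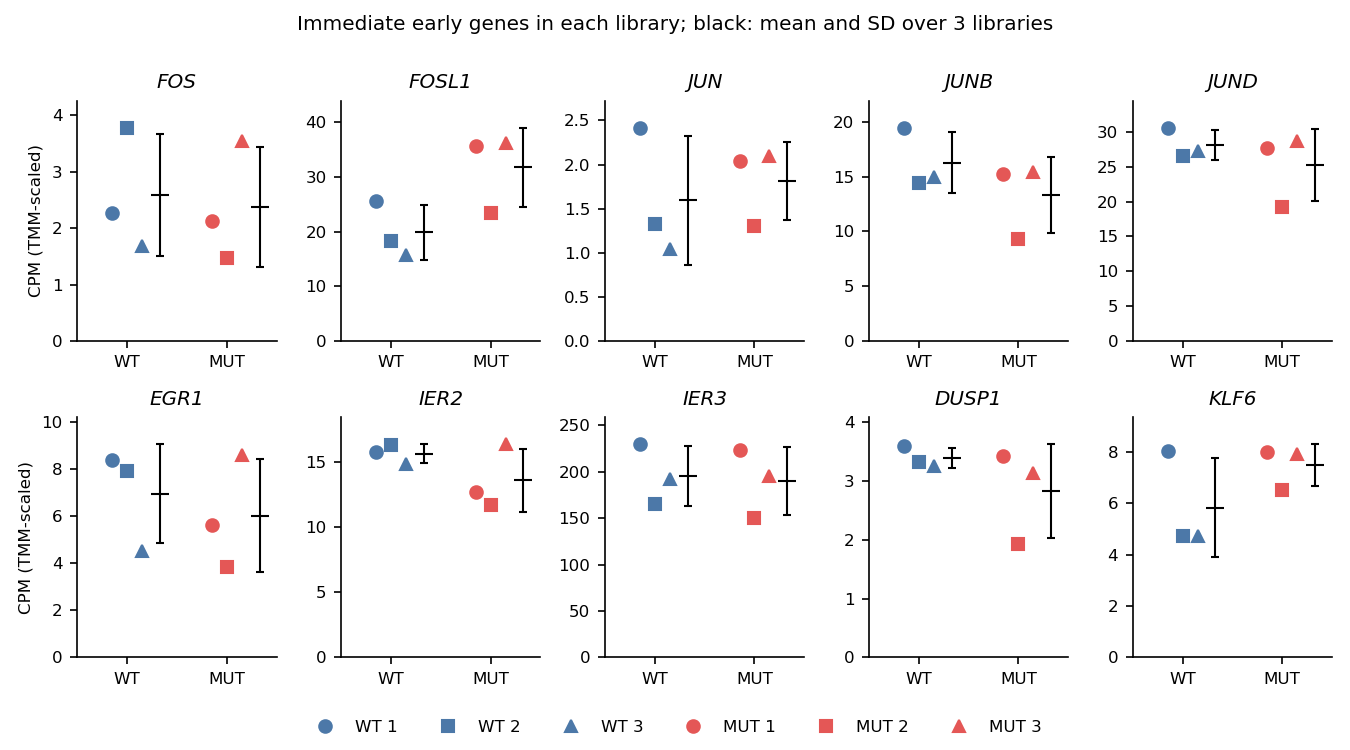
Level of each gene in each library as CPM (TMM-scaled, linear axes from 0), with WT in blue, MUT in red, the marker shape giving the replicate number and black bars the mean and SD of 3 libraries. FOSL1 ran from 15.7 to 25.5 CPM in WT and from 23.4 to 36.2 in MUT, and in each of the 10 genes MUT replicate 2 (red square) was the lowest MUT library.

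Levels of different genes were compared per length, as the deposited TPM, which are scaled for transcript length and library total, within each library. IER3 was the most abundant of the 10 in all 6 libraries (28.7 to 68.9 TPM) and JUN the least (0.06 to 0.22 TPM). JUND and FOSL1 followed IER3 and exchanged places with genotype. JUND held rank 2 and FOSL1 rank 3 in each WT library (JUND 3.42, 4.31 and 2.56 TPM; FOSL1 3.35, 3.43 and 1.68 TPM). FOSL1 held rank 2 and JUND rank 3 in each MUT library (FOSL1 5.57, 8.10 and 6.75 TPM; JUND 3.74, 5.53 and 4.60 TPM). They were nearly level in WT replicate 1 and further apart in the other 5 libraries. JUNB and IER2 took ranks 4 and 5 in every library, with levels of 1.26 to 3.05 TPM. EGR1, DUSP1, KLF6 and FOS shared ranks 6 to 9, all below 1 TPM in each library, and their order changed from library to library. Here, TPM were used for order and shares within a library only, since the median difference between MUT and WT over all genes was 0.36 on the log2(TPM + 1) scale.

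FOS, the FOS subunit with the briefest expression, was at 2.27, 3.78 and 1.69 CPM in WT and at 2.12, 1.47 and 3.55 CPM in MUT. The high libraries were WT replicate 2 and MUT replicate 3, and the groups overlapped fully. The log2 fold change was -0.15 (SE 0.36, 95% interval -0.96 to 0.67, adjusted p = 0.873), on 73 to 283 counts per library. The gene lies at chr14:75278828-75282230 on the plus strand (GRCh38) and has 2 to 4 exons.

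FOSL1, which encodes the FOS-related subunit FRA-1, was at 25.5, 18.3 and 15.7 CPM in WT and at 35.7, 23.4 and 36.2 CPM in MUT. MUT replicates 1 and 3 lay above every WT library, and MUT replicate 2 lay between WT replicate 1 and the other WT libraries. The log2 fold change was 0.68 (SE 0.22, 95% interval 0.18 to 1.18, adjusted p = 0.139), a fold of 1.60 with an interval of 1.13 to 2.26. The counts were 1762, 1366 and 679 in WT and 2680, 2280 and 2158 in MUT, so counting error is small beside the spread between libraries. FOSL1 lies at chr11:65892049-65900545 on the minus strand.

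Among the 4 FOS family genes, FOSL1 supplied 88.2% ± 3.8 of the summed TPM in WT and 92.0% ± 1.4 in MUT (SD, n = 3). FOS supplied 9.14% ± 4.0 in WT and 5.22% ± 1.5 in MUT. FOSL2 and FOSB made up the rest, FOSL2 with 1.72% to 3.17% and FOSB with at most 0.529% in any library. The groups overlapped in all 4 shares, so the FOS family mRNA was mainly FOSL1 in both genotypes.

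JUN was the least abundant JUN family gene. Its level was 2.42, 1.32 and 1.04 CPM in WT and 2.04, 1.30 and 2.09 CPM in MUT, with WT replicate 1 highest and WT replicate 3 lowest. MUT over WT gave a log2 fold change of 0.16 (SE 0.32, 95% interval -0.56 to 0.88, adjusted p = 0.833), on 45 to 167 counts. JUN is a single-exon gene at chr1:58780791-58784047 on the minus strand.

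JUNB, a JUN protein that often opposes JUN in growth control, was at 19.5, 14.4 and 15 CPM in WT and at 15.3, 9.32 and 15.4 CPM in MUT. The other 4 libraries, without the highest WT and the lowest MUT value, lay between 14.4 and 15.4 CPM. Its log2 fold change of -0.29 was the lowest of the 10 (SE 0.21, 95% interval -0.76 to 0.18, adjusted p = 0.496). JUNB has a single exon at chr19:12791486-12793315 on the plus strand, and HOOK2 overlaps it on the other strand.

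JUND, the JUN gene least dependent on stimulation, was at 30.6, 26.5 and 27.3 CPM in WT and at 27.8, 19.3 and 28.7 CPM in MUT. Only MUT replicate 2 lay below the WT range. Between the groups the log2 fold change was -0.16 (SE 0.16, 95% interval -0.53 to 0.22, adjusted p = 0.665). JUND lies at chr19:18279694-18281622 on the minus strand. It supplied 61.0% ± 2.4 of JUN family TPM in WT and 62.8% ± 1.5 in MUT, JUNB 37.0% ± 1.9 and 34.6% ± 1.5, and JUN 2.02% ± 0.64 and 2.64% ± 0.068 (SD, n = 3), with overlapping groups in each.

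EGR1, whose mRNA is a standard readout of ERK signalling through SRF, was at 8.40, 7.95 and 4.54 CPM in WT and at 5.63, 3.84 and 8.61 CPM in MUT. Each group held high and low libraries, and the highest and the lowest of the 6 were both MUT. Its log2 fold change was -0.22 (SE 0.30, 95% interval -0.91 to 0.47, adjusted p = 0.757). EGR1 lies at chr5:138465479-138469303 on the plus strand with 2 exons.

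KLF6 was at 8.05, 4.73 and 4.72 CPM in WT and at 7.98, 6.53 and 7.93 CPM in MUT. All 3 MUT libraries exceeded WT replicates 2 and 3, and WT replicate 1 exceeded all of them. The log2 fold change was 0.35 (SE 0.21, 95% interval -0.12 to 0.83, adjusted p = 0.398). KLF6 lies at chr10:3775996-3785209 on the minus strand.

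IER2, a small nuclear protein, was at 15.8, 16.2 and 14.8 CPM in WT and at 12.7, 11.7 and 16.3 CPM in MUT. MUT replicates 1 and 2 lay below the WT range and MUT replicate 3 just above it (log2 fold change -0.20, SE 0.14, 95% interval -0.53 to 0.12, adjusted p = 0.493). It had the narrowest spread of the 10, with the highest library at 1.40 times the lowest. IER2 lies at chr19:13150411-13154911 on the plus strand.

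IER3, which is linked to cell survival and ERK signalling, was at 229.6, 164.7 and 191.7 CPM in WT and at 223.4, 150.6 and 195.1 CPM in MUT. Replicate 1 was the highest library of each group, and the ranges nearly coincided. MUT differed from WT by a log2 fold change of -0.04 (SE 0.21, 95% interval -0.52 to 0.43, adjusted p = 0.941), on 8285 to 16773 counts. IER3 lies at chr6:30743199-30744547 on the minus strand.

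DUSP1 was at 3.59, 3.33 and 3.26 CPM in WT, a spread of 0.174 (SD), and at 3.44, 1.93 and 3.13 CPM in MUT. The low value was that of MUT replicate 2, and the other 5 libraries lay close together. The log2 fold change was -0.27 (SE 0.20, 95% interval -0.73 to 0.20, adjusted p = 0.530). DUSP1 has 4 exons at chr5:172768096-172771195 on the minus strand. In IER2, IER3 and DUSP1, as in JUNB, a gene on the other strand overlaps (AC011446.2, IER3-AS1 and AC022217.3), and the strand setting of the counting is not given in the sources used here.

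Single libraries set much of the spread. On TMM-scaled CPM, MUT replicate 2 was the lowest of the 6 libraries for 7 of the 10 genes and the lowest MUT library for all 10. It was the lowest of 6 for 21.2% of all tested genes. WT replicate 3 was the lowest for the other 3 genes, FOSL1, JUN and KLF6. WT replicate 1 was the highest of 6 for 6 genes (JUN, JUNB, JUND, IER3, DUSP1 and KLF6), against 14.4% of all genes, and MUT replicate 3 for FOSL1, EGR1 and IER2. On the log2 scale, the median deviation of the 10 genes from their own means over the 6 libraries was -0.40 in MUT replicate 2 and -0.22 in WT replicate 3. It was 0.25 in WT replicate 1, 0.23 in MUT replicate 3, 0.12 in MUT replicate 1 and 0.00 in WT replicate 2. Over all tested genes the same median lay between 0.00 and 0.03 in every library, but TMM scaling itself brings that median near 0. The shifts of the 10 are thus relative to the typical gene, and their source was not tested. The TMM factor was 1.68 in MUT replicate 2 and 0.676 to 1.11 in the other libraries, and the ranks depend on this scaling. In the deposited TPM, MUT replicate 2 was instead the highest of the 6 libraries for FOSL1 (8.10) and IER3 (68.9). The same held for JUN, JUNB, JUND, IER2, DUSP1 and KLF6, but not for FOS and EGR1.

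The edgeR dispersion gave biological coefficients of variation from 17.3% for IER2 to 31.3% for FOS. In 9 of the 10 genes the dispersion was above the median of tested genes within 0.5 log2 CPM of the same level. FOS and EGR1 exceeded 97.7% and 97.8% of such genes, JUN 95.2% and FOSL1 94.8%, while IER3 exceeded 41.2%. The share of ribosomal RNA was highest in the same libraries that held most of the lowest and highest CPM values, MUT replicate 2 (3.91%) and WT replicate 1 (1.16%). Its part in the result was not tested.

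**Figure D2:**
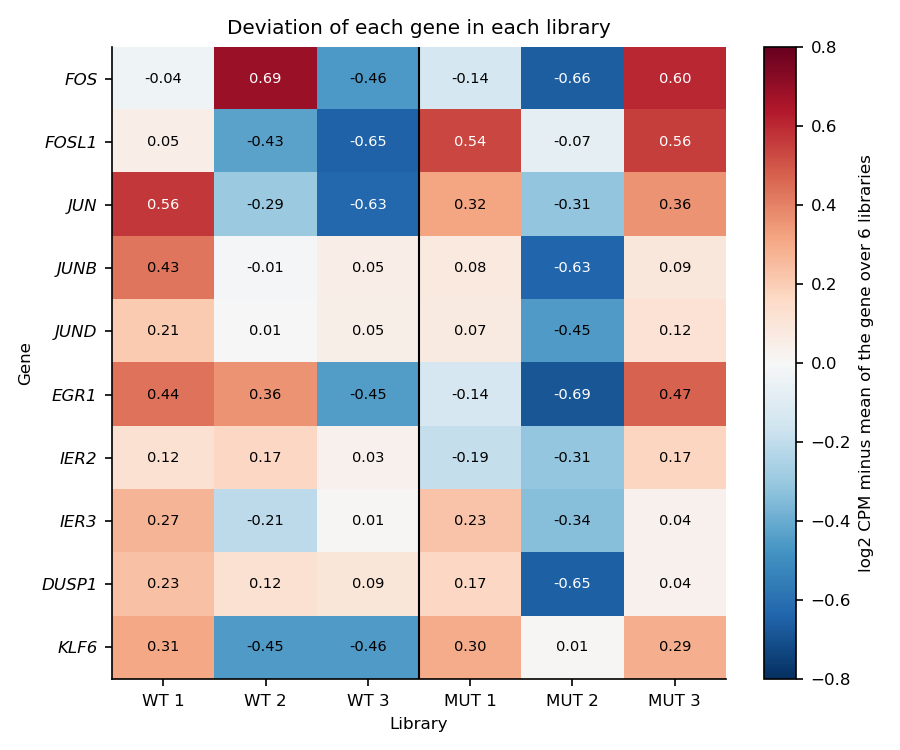
Deviation of each gene (rows) in each library (columns) from the gene's mean log2 CPM over 6 libraries, with red above and blue below. MUT 2 is at or below 0.01 in every row and reaches -0.69 in EGR1, while FOSL1, JUN and KLF6 share low values in WT 2 and WT 3.

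Correlations across the 6 libraries are given as descriptions, since all genes share the same libraries and scaling. JUNB, JUND and DUSP1 moved most closely, with Pearson r on log2 CPM of 0.98 for JUNB and JUND, 0.96 for JUND and DUSP1 and 0.94 for JUNB and DUSP1. FOSL1 and KLF6 (0.91) and JUN and KLF6 (0.90) were also close, and FOS and EGR1, the most rapidly induced, went together at 0.88. The lowest value was -0.16, for IER2 and KLF6. Some of these values rest on the difference between the genotype means. With each group's mean removed, FOSL1 and JUNB went from 0.15 to 0.93 and FOSL1 and JUND from 0.20 to 0.87, beside 0.88 for FOSL1 and KLF6, 0.95 for JUN and KLF6 and 0.98 for JUNB and JUND. Of 1252 well-expressed protein-coding genes outside the set, those whose profile over the 6 libraries was most like the mean of the 10 were ZYX, the focal adhesion protein zyxin (r = 0.997), BTBD2 (0.972), ACTB, cytoplasmic beta-actin (0.967), CDC42EP1, an effector of the GTPase CDC42 (0.959), and CCNI (0.955). ZYX was at 23.2, 21.2 and 19.1 CPM in WT and 21.99, 18.4 and 23.3 CPM in MUT, and its log2 fold change was 0.00 (adjusted p = 0.996). Its lowest library was MUT replicate 2 and its highest MUT replicate 3.

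FOSL1 separated from the other members within libraries. Ratios of counts within a library do not depend on how libraries are scaled to each other. The log2 ratio of FOSL1 to the mean of the other 9 genes was 1.18, 0.94 and 0.96 in WT and 1.87, 1.79 and 1.73 in MUT. The mean was 1.03 ± 0.13 in WT and 1.80 ± 0.073 in MUT (SD, n = 3), a difference of 0.77, and the groups did not overlap. Over 14649 genes with counts in every library, 8.01% lay higher in MUT without overlap on the same ratio. MUT replicate 2, the lowest MUT library for FOSL1 in CPM, was thus level with the other MUT libraries once set against the other members. This ratio was chosen after the values had been seen and carries no test, and an exact permutation test of 3 against 3 libraries cannot go below p = 0.1.

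The same FOSL1 counts were also set against each other gene in turn. FOSL1 had 1.31, 1.27 and 1.05 counts per JUNB count in WT and 2.34, 2.51 and 2.35 in MUT. Per JUND count it had 0.833, 0.688 and 0.576 in WT and 1.29, 1.21 and 1.26 in MUT, so the counts of FOSL1 lay below those of JUND in each WT library and above them in each MUT library. Per EGR1 count the values were 3.04, 2.30 and 3.46 in WT and 6.34, 6.10 and 4.20 in MUT. In 7 of the 9 pairs with FOSL1 the groups did not overlap, the exceptions being FOS and KLF6, against 5 of the 36 pairs without FOSL1. All 9 share the same FOSL1 counts, so they are not 9 separate observations. The share over pairs of other genes was not computed. The 5 pairs without FOSL1 were JUN to JUNB, higher in MUT, and JUNB, JUND, IER3 and DUSP1 to KLF6, all lower in MUT. JUNB was also the sole gene that lay lower in MUT without overlap relative to the mean of the other 9, with a log2 ratio of 0.73 ± 0.17 in WT and 0.39 ± 0.10 in MUT (SD, n = 3). On that ratio 5.15% of 14649 genes lay lower in MUT without overlap, and the gene was singled out after its values were seen.

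**Figure D3:**
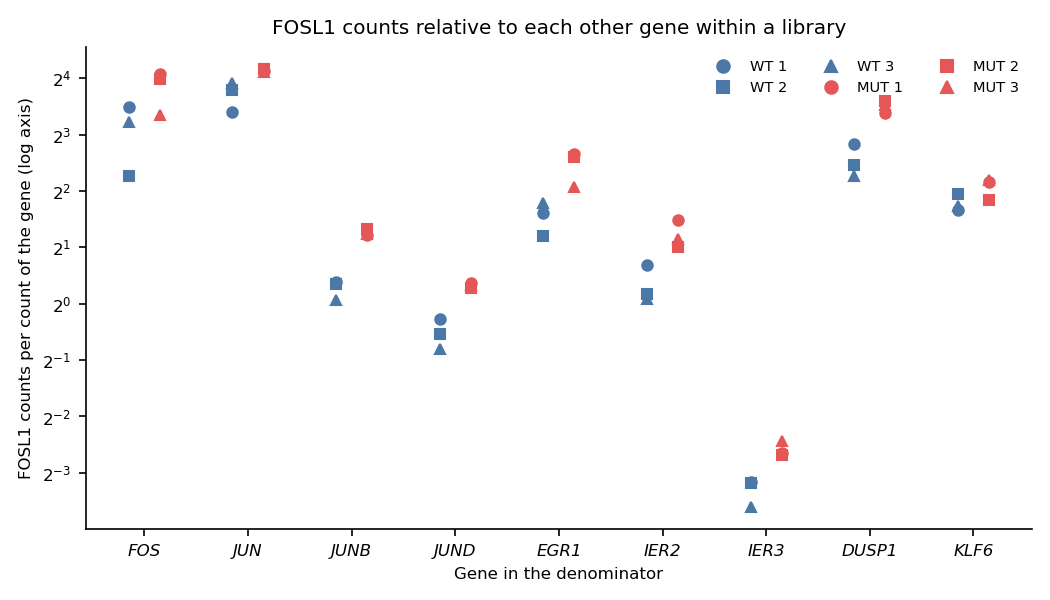
FOSL1 counts per count of each other gene within a library, on a log axis, with WT in blue, MUT in red and the marker shape giving the replicate number. The red points lie above the blue ones in 7 of 9 columns and overlap for FOS and KLF6.

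The FOSL1 call turned on which libraries entered, and also on the test and the low-count filter. Without MUT replicate 2 its log2 fold change was 0.87 (SE 0.18, 95% interval 0.48 to 1.27, edgeR adjusted p = 0.0306), and FOSL1 was the sole member called, where 2.9% of all genes were called. It was also the sole member whose groups did not overlap in those 5 libraries, where 38.1% of all genes did not overlap. Without MUT replicate 2 and WT replicate 1, in the 4 libraries low in ribosomal RNA, FOSL1 was at 1.10 (SE 0.15, adjusted p = 0.00169) and KLF6 at 0.77 (SE 0.15, adjusted p = 0.0187), and 2.66% of all genes were called. JUN was at 0.80 in that fit (SE 0.24, adjusted p = 0.0965), and the other 7 members lay between -0.08 and 0.25. In CPM, MUT replicate 2 was the lowest MUT library for all 10 genes. WT replicate 1 was the highest WT library for 8, FOSL1, KLF6 and JUN among them. Leaving these libraries out therefore raises MUT over WT in these genes, and the calls made without them are no separate support. With no low-count filter FOSL1 was called at 0.68 (adjusted p = 0.00394), where 4.07% of genes were called, and by DESeq2 at 0.69 (adjusted p = 0.0190). Across all 16 alternatives FOSL1 stayed above 0 (0.55 to 1.29, adjusted p from 0.00169 to 0.528), and KLF6 did so in the 14 that tested it (0.24 to 0.89, adjusted p from 0.0187 to 0.663). The other 8 genes each changed sign in at least 1 alternative, with no adjusted p below 0.0965.

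**Figure D4:**
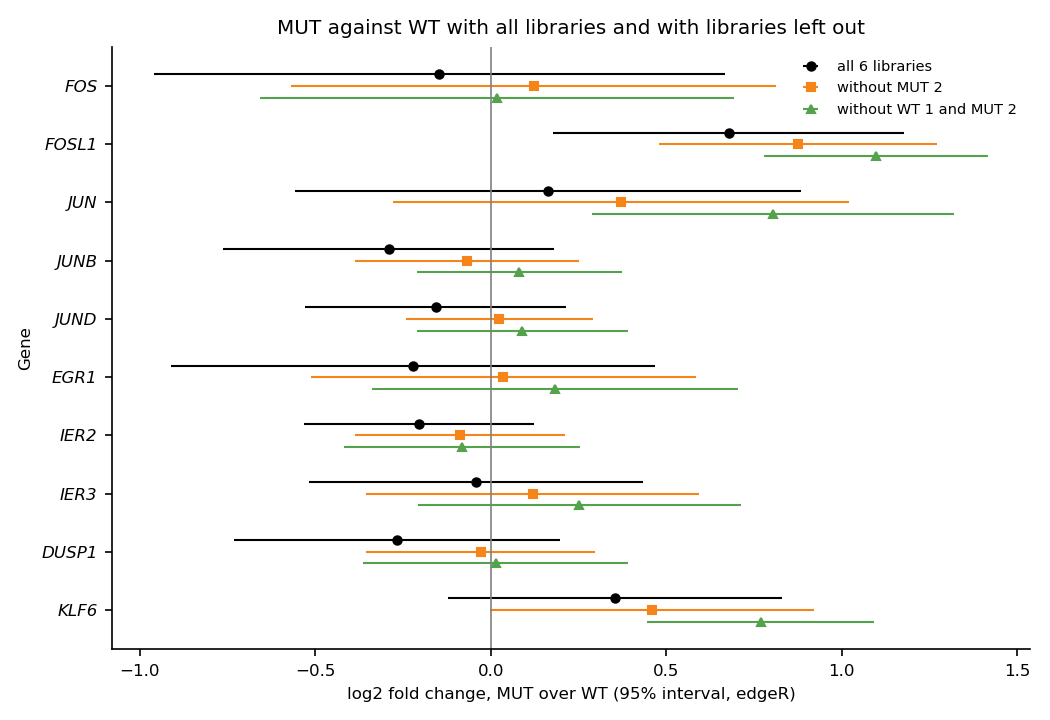
Log2 fold change of MUT over WT with its 95% interval for each gene, in all 6 libraries (black), without MUT 2 (orange) and without WT 1 and MUT 2 (green). FOSL1 moves from 0.68 to 0.87 and 1.10 and its interval lies above 0 in each, while the intervals of FOS, JUNB, JUND, EGR1, IER2, IER3 and DUSP1 include 0 in each.

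In the rest of the AP-1 family, 3 of 12 tested genes (of 15 listed) were higher in MUT and 0 lower, against 1.91% of all genes called in either direction. FOSL2, which encodes the other FOS-related subunit FRA-2, was at 2.11, 1.60 and 2.15 CPM in WT and 3.70, 2.95 and 3.74 CPM in MUT (log2 fold change 0.83, SE 0.17, adjusted p = 0.0475). BATF3, a BATF family partner of JUN proteins, was at 1.16, 1.52 and 1.2 CPM in WT and 3.20, 3.52 and 2.58 CPM in MUT (1.26, SE 0.18, adjusted p = 0.0177). MAFG, a small MAF protein that pairs with CNC factors such as NRF2, was at 1.74, 1.71 and 1.97 CPM in WT and 2.69, 2.95 and 3.59 CPM in MUT (0.77, SE 0.16, adjusted p = 0.0481). MUT replicate 2 was the lowest MUT library for FOSL2, the highest for BATF3 and the middle one for MAFG. The groups did not overlap in any of the 3, as in 26.1% of all tested genes. These 3 were named because they were called, so this is no separate support. The list's median log2 fold change was 0.36, with 7 genes above 0 and 5 below. Among the untested genes, BATF and MAF had 0 counts in every library.

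Among other immediate early genes, 2 of 30 tested (of 34 listed) were called, against 1.91% of all tested genes. Both were higher in MUT, and the list's median log2 fold change was 0.04. BTG2, an antiproliferative gene also induced by p53, rose from 2.09, 2.06 and 1.92 CPM to 3.36, 3.31 and 3.23 CPM (0.70, SE 0.12, adjusted p = 0.0294). SGK1, a serum- and glucocorticoid-induced kinase, rose from 0.362, 0.454 and 0.486 CPM to 1.12, 0.996 and 0.955 CPM (1.24, SE 0.24, adjusted p = 0.0379). The list's calls depended on the fit. With the replicate block SGK1 was not called and IER5L was called lower, DESeq2 called 2 higher and 2 lower (IER5L and DUSP2), and with no low-count filter 4 were higher and 2 lower. Those fits called 2%, 5.16% and 4.07% of all genes. IER5L, named after its values were seen, was at 85.0, 64.5 and 89.1 CPM in WT and 57.8, 35.7 and 48.6 CPM in MUT (-0.75, SE 0.20, edgeR adjusted p = 0.0955), and DUSP2, likewise, was at -0.56 (SE 0.13, edgeR adjusted p = 0.0664). The closest relatives of EGR1 were barely detected, with EGR2 at 0 to 20 counts, EGR3 at 0 to 7 and EGR4 at 1 to 3.

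Of 26 tested genes upstream of the immediate early genes, 1 was called, against 1.91% of all tested genes. These 26 encode RAS proteins, kinases and promoter-bound factors. ARAF, a RAF kinase, was at 6.50, 6.07 and 4.95 CPM in WT and 10.4, 9.04 and 10.4 CPM in MUT (0.76, SE 0.13, adjusted p = 0.0284). The list's median was 0.01, with 13 genes above 0 and 13 below.

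Of 14 tested AP-1 target genes (of 18 listed), 3 were higher in MUT and 0 lower, with a list median of 0.26. Over all tested genes, 1.91% were called in either direction. CCND1, which encodes cyclin D1, rose from 31.1, 25.8 and 24.2 CPM to 47.8, 42.0 and 53.0 CPM (0.82, SE 0.15, adjusted p = 0.0303). AREG, which encodes the EGF receptor ligand amphiregulin, rose from 19.8, 19.1 and 15.4 CPM to 32.8, 37.5 and 31.0 CPM (0.90, SE 0.14, adjusted p = 0.0199). The matrix metalloproteinase genes MMP1, MMP3, MMP10 and MMP13, textbook AP-1 targets, had at most 3 counts in any library. These genes answer to other pathways too, and which of them AP-1 drives in HCT116 cells was not measured.

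Genes induced by heat and other proteotoxic stress had 0 of 11 called by edgeR and 3 of 11 at an unadjusted p below 0.05. Over all tested genes these shares were 1.91% and 19.6%. The DESeq2 Wald test called 1 of the 11, HSPB1, lower, in a fit that called 5.16% of all genes. With no low-count filter 1 of the 11, HSPA1A, was called higher, where 4.07% of genes were called. The smallest p in edgeR was that of HSPB1, at 209.4, 196.9 and 179.0 CPM in WT and 141.6, 140.4 and 129.4 CPM in MUT (log2 fold change -0.51, SE 0.16, adjusted p = 0.125). The list's median was -0.21, and its summed level was 677 to 810 CPM in WT and 570 to 657 CPM in MUT. HSPA8 (219 to 326 CPM) and HSPB1 were the largest parts of that sum. Gene by gene, the groups did not overlap in 4 of the 11 (1 higher and 3 lower in MUT), against 26.1% of all tested genes. MUT replicate 2, the lowest MUT library for the immediate early genes in CPM, was the highest MUT library for the summed heat shock genes. Most of the 11 genes were highest there among the MUT libraries, but HSPA1B and DNAJB1 were lowest there. HSPA1B was at 14.9, 12.3 and 16.0 CPM in MUT and DNAJB1 at 35.5, 30.4 and 39.5 CPM, both named after their values were seen.

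Of the 9 called genes in these lists, all 9 stayed above 0 when any library was left out. The 9 were picked as called and higher in the full data, so these signs are no separate support. All 9 were called without MUT replicate 2, 1 (BATF3) without MUT replicate 3, and 0 without MUT replicate 1 or any WT replicate. Over all genes, 2.9% were called without MUT replicate 2, but only 0.177% to 0.392% with any other single library left out. With library size alone 6 of the 9 (FOSL2, MAFG, BTG2, ARAF, CCND1 and AREG) were not called, and each of the 9 was called in 7 to 10 of the 14 or 16 alternatives that tested it.

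**Figure D5:**
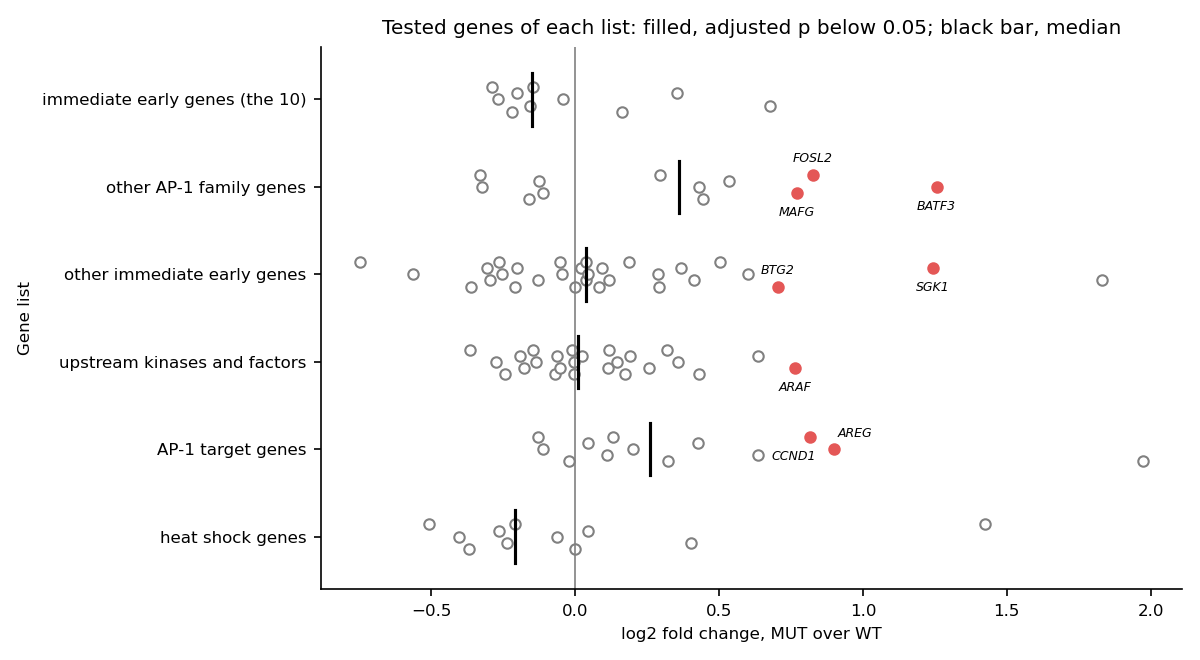
Log2 fold change of MUT over WT for tested genes (circles) of the 10 immediate early genes and of 5 related lists, filled red where the adjusted p was below 0.05, with the median as a black bar. No filled circle lies among the 10, and the filled circles drawn for the other lists all lie above 0.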

How the data were processed

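Total RNA of 6 libraries was sequenced after phenol-chloroform extraction and NEBNext Ultra II preparation, per the labels' protocols. The submitters' processing notes name the aligner STAR 2.5.2b, the estimator RSEM 1.2.28, DESeq2 1.42.0 and build hg38 (GRCh38), with no roles given. The authors deposited expected counts and TPM per gene symbol; all expected counts were whole numbers, so rounding changed none. The 10 genes, the gene lists, the tests and the naming rule were chosen with earlier results of these data known. The rule named every member, each list's called genes (at most 4) or else its smallest p, and the 5 genes most like the members' mean. A few genes, 1 of them called, are not reported by name or drawn here and stay in the counts and medians.

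Counts were fitted in R 4.3.3 with edgeR 4.0.16 (filterByExpr, minimum count 10; TMM; quasi-likelihood F-test; Benjamini-Hochberg over 14808 genes; calls at 0.05), tested on simulated data. CPM are relative to TMM-scaled totals. DESeq2 1.42.0 and limma 3.58.1 served as alternatives. Libraries of a group were no duplicates (chi-square per degree of freedom of at least 66.2).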

Additional observations from a re-analysis of the deposited data

How the results depend on the processing

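Of 150 values of single genes under 16 alternatives, 117 kept direction and side of the threshold, 5 passed it (FOSL1 4 times, KLF6 once, given above) and 28 changed sign, none of those past the threshold; the cause was not tested. The count of genes called over the table was 283, and 108 with library size alone, 1195 with no low-count filter, 462 at 1 CPM in 3 libraries, 764 with DESeq2, 21 and 10 with limma on log2(TPM + 1) and log2(TPM + 0.1), and 27 to 442 with 1 library left out. Members called were 0, and 1 with no filter, 1 with DESeq2, 0 to 1 with 1 library left out and 2 in the 4 libraries low in ribosomal RNA. The members' median of -0.15 was 0.32 with library size alone, 0.35 on log2(TPM + 1) and 0.43 on log2(TPM + 0.1), where the medians of all genes were 0.54, 0.36 and 0.49; the TPM fits tested 5 of the 10 genes. It ranged from -0.30 to 0.08 with 1 library left out and was 0.14 in the 4 libraries low in ribosomal RNA.

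With library size alone, FOS was at 0.25, JUNB 0.19, JUND 0.34, EGR1 0.22, IER2 0.31, IER3 0.47 and DUSP1 0.20. On log2(TPM + 1), JUNB was at 0.21, JUND 0.35, IER2 0.27 and IER3 0.56, and on log2(TPM + 0.1) at 0.29, 0.43, 0.39 and 0.57. In the 4 libraries low in ribosomal RNA, FOS was at 0.019, JUNB 0.081, JUND 0.090, EGR1 0.18, IER3 0.25 and DUSP1 0.015. With 1 library left out, FOS ranged from -0.54 to 0.27, JUN from -0.038 to 0.61, JUND from -0.26 to 0.025, EGR1 from -0.56 to 0.036 and IER3 from -0.18 to 0.12.

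The replicate numbers showed no pairing of the samples. Deviations of same-numbered libraries correlated at -0.69, -0.35 and 0.41, and most libraries correlated best with another number. With 3 libraries per group this check cannot exclude pairing. WT replicate 1 and MUT replicate 2, the libraries highest in ribosomal RNA, correlated at 0.64. With the replicate block, 296 genes and 0 members were called, and FOSL1 was at 0.68 (edgeR adjusted p = 0.0934). FOS, JUN and DUSP1 rest on 45 to 283 counts per library, so a counting error of up to 14.9% adds to their spread.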
